A study of Mus musculus with 30 samples.

Results

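Ccl21a, which encodes the chemokine CCL21, was examined here together with the transcripts that lie near it on mouse chromosome 4: Ccl19, Il11ra1, B4galt1, the transcribed pseudogene Gm3893 and an unnamed transcript beside Ccl21a. These 6 genes, out of 28146 gene names on the array, were read by 10 probes out of 41174. The set was taken as every probe the array annotation names for Ccl21a, B4galt1, Ccl19 and Il11ra1, plus probe A_52_P311999 for Gm3893 and probe A_52_P256507 for the unnamed transcript. The members were chosen by their log2 differences between knock-in and wild-type mice, and by the split between high and low arrays, in these same files, so those differences are given below as a description. The calls of the members in the fit across all probes are printed beside the share of all probes called, and nothing is read from them.

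The arrays measured RNA from the hypothalamus of 30 young adult male mice, collected in the 17th cycle of 3.5 h light and 3.5 h dark. Boxhill mice were homozygous for a Per3 5/5 knock-in and Coach mice for a Per3 4/4 knock-in, in which human PER3 exon 18 with 5 or 4 copies of a coding repeat had been put into mouse Per3. Wildtype mice carried no knock-in. The knock-ins were made in Bruce4 embryonic stem cells, which derive from C57BL/6 mice congenic for Thy1.1, and the chimeras were crossed to C57BL/6J. The mice studied had homozygous parents, so genotype and breeding line cannot be told apart. The arrays were scanned in 2 runs on different scanner models: run 1 held 7 Boxhill and 7 Wildtype arrays, and run 2 held 8 Coach and 8 Wildtype arrays. Knock-in mice were therefore compared only with the Wildtype mice of their own run. Each array is 1 mouse per the study's methods, and levels are log2 intensity minus the 75th percentile of that array. The standard errors (SE) of differences come from 1 limma fit in which all 4 groups of both runs share 1 estimate of the spread. They are therefore not the scatter of only the 2 groups compared.

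The 75th percentile of intensity lay between 347 and 1546 over the 30 arrays, and 58.6% to 74.6% of spots were well above background. Coach replicate 5 and Wildtype replicate 15 were the dimmest arrays of run 2. Of the 12 hypothalamic neuron markers looked for, Hcrt, Pmch, Avp and Oxt were well above background on all 30 arrays, whereas Otp was so on 0. The only Per3 probe checked no label, since whether it reads the replaced exon was not established: its level was -3.41 to -2.56 in Boxhill against -3.41 to -2.28 in Wildtype mice of run 1, and -3.88 to -3.02 in Coach against -4.55 to -3.09 in Wildtype mice of run 2. The replicate numbers of run 1 in the deposited scanner files and in the authors' value table disagreed. Over all tested probes, each of the 14 table columns resembled exactly 1 scanner array, with Pearson r of at least 0.986, always an array of the same genotype, but only 1 of the 14 carried the same number. In run 2 all 16 columns carried the same number. Group differences in run 1 do not depend on the numbering. The replicate numbers given here for run 1 are those of the scanner files, and which of the 2 numberings is right is not settled.

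CCL21 and CCL19 are the ligands of the receptor CCR7 and guide dendritic cells and lymphocytes towards and within lymph nodes, where stromal and lymphatic endothelial cells make CCL21. In the mouse, CCL21 is encoded by several nearly identical genes, and this stretch of chromosome 4 carries repeated copies and pseudogenes of the Ccl21, Ccl19 and Il11ra families. Il11ra1 encodes the chain that binds interleukin 11 and signals through gp130, and B4galt1 encodes a Golgi enzyme that adds galactose to the sugar chains of glycoproteins.

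The probes are 60 bases long, and the first 30 bases of 4 of them are shown, since the reading of the results turns on which transcripts they can bind. They are the 3 probes whose levels split the mice alike and, for contrast, a Ccl19 probe that did not.
Ccl21a, A_51_P129480: tggttcacggtccaactcacaggcaaagag
unnamed transcript, A_52_P256507: gggtacagccgacctagagagcgaatccat
Gm3893, A_52_P311999: cagttttcgtcctctgagaagtcagtgatg
Ccl19, A_51_P458262: ctcctgatgctctgtcccagacctaaccca
No letters are in capitals because no motif was marked. None of the 10 member probes shared a run of 20 bases, on either strand, with any other probe of the array (0 other probes for each). The Ccl21a probe is nevertheless not annotated to 1 gene only: it lists 3 RefSeq transcripts, which the RefSeq gene table (GRCm38.p6) names Ccl21a, Ccl21b and Ccl21c. Its signal may therefore come from more than 1 of these copies, and which of them it read was not determined. The Il11ra1 probes list transcripts of Il11ra1 and of Gm13305, while the Ccl19, B4galt1 and Gm3893 probes each list 1 RefSeq transcript. G and C made up 38.3% to 76.7% of the bases of the 10 probes, the highest in B4galt1 probe A_52_P122867.

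In the mm9 coordinates of the scanner files, the Ccl21a probe lies at chr4:42231835-42231894 on the plus strand. The unnamed transcript's probe lies 18.5 kb to its left, at chr4:42213341-42213400, and the Ccl19 probes lie 18.5 and 18.6 kb to its right, at chr4:42250352-42250411 and chr4:42250432-42250491. The Il11ra1 probes are about 516 kb to the left, at chr4:41716152-41716211 and chr4:41716228-41716287. The B4galt1 probes are farther still, at chr4:40751635-40751668, chr4:40751739-40751798 and chr4:40800729-40800788 on the minus strand. The files place the Gm3893 probe on a sequence of unknown chromosome, but the RefSeq gene table lists Gm3893 on chromosome 4 as a transcribed pseudogene, between Il11ra1 and Ccl19. In that table's order Ccl21d, Ccl19-ps1, Ccl21b, Ccl19-ps2, Ccl27b and Il11ra2 also lie between Il11ra1 and Ccl19. The table puts Ccl21a on the far side of Ccl19 from Il11ra1, whereas the files place the Ccl21a probe on the near side, so which Ccl21 copy the probe's coordinates mark is not settled. Per3, the edited gene, is on the same chromosome, and its probe is 108 Mb from the Ccl21a probe. The files used here give no exon or untranslated region for these positions.

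Ccl21a was the most reduced of all 29947 tested probes in Coach mice, and it split the mice of a genotype into widely separated levels. In the 8 Wildtype mice of run 2 its level was 0.16 at the lowest, 0.52 at the median and 1.37 at the highest. In the 8 Coach mice it was -5.42 at the lowest, -4.41 at the median and -0.19 at the highest. All 8 Coach mice were below all 8 Wildtype mice, but they were not alike: Coach replicates 4, 7 and 8 were at -0.19, -0.20 and -0.41, close below the Wildtype mice, whereas Coach replicates 1, 2, 3, 5 and 6 were between -5.42 and -4.34. No array of run 2 lay in the 3.93 log2 units between these levels, and the Coach mean of -3.07 ± 2.34 (SD, n = 8) fell in that empty stretch. The difference of the group means was -3.73 (SE 0.78), a 13.2-fold lower mean level. It was -2.58 with normexp background correction, which used median spot signals and added 50 to every intensity. Adding 50 narrows differences between dim and bright arrays, but its own share of the change was not tested.

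The same split ran through the Wildtype mice of run 1. The 7 Boxhill mice were all low, with a lowest level of -5.37, a median of -5.06 and a highest of -4.50. The 7 Wildtype mice had a lowest level of -5.31, a median of -4.78 and a highest of -0.20. Wildtype replicates 4 and 5 were high, at -0.36 and -0.20, replicate 6 was in between at -2.93, and replicates 1, 2, 3 and 7 were as low as the Boxhill mice. The groups therefore overlapped, and the difference of -1.63 (SE 0.84), or 3.09-fold, rested on 3 of the 7 Wildtype mice. Without Wildtype replicate 5 it was -1.09, without replicate 4 it was -1.12, and with normexp background correction it was -1.03.

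The low Ccl21a level was dim, though still well above background on most arrays. Processed intensities of the 12 arrays of run 1 below the widest gap included 18.2 in Boxhill replicate 4, which was not well above background, while the highest Wildtype value in that run was 789. In run 2 intensities ran from 8.08 in Coach replicate 5, again not well above background, to 902 in Coach replicate 4, and from 899 to 2600 in the Wildtype mice. The probe was well above background on 6 of 7 Boxhill, 7 of 8 Coach and all 15 Wildtype arrays. The SD of Ccl21a between mice ranked 10 of 29947 probes in the Wildtype mice of run 1 (2.29 against a median of 0.22) and 13 in the Coach mice (2.34 against a median of 0.34). In the Boxhill mice it was 0.31 and in the Wildtype mice of run 2 it was 0.45, ranks 10925 and 12555.

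**Figure D1:**
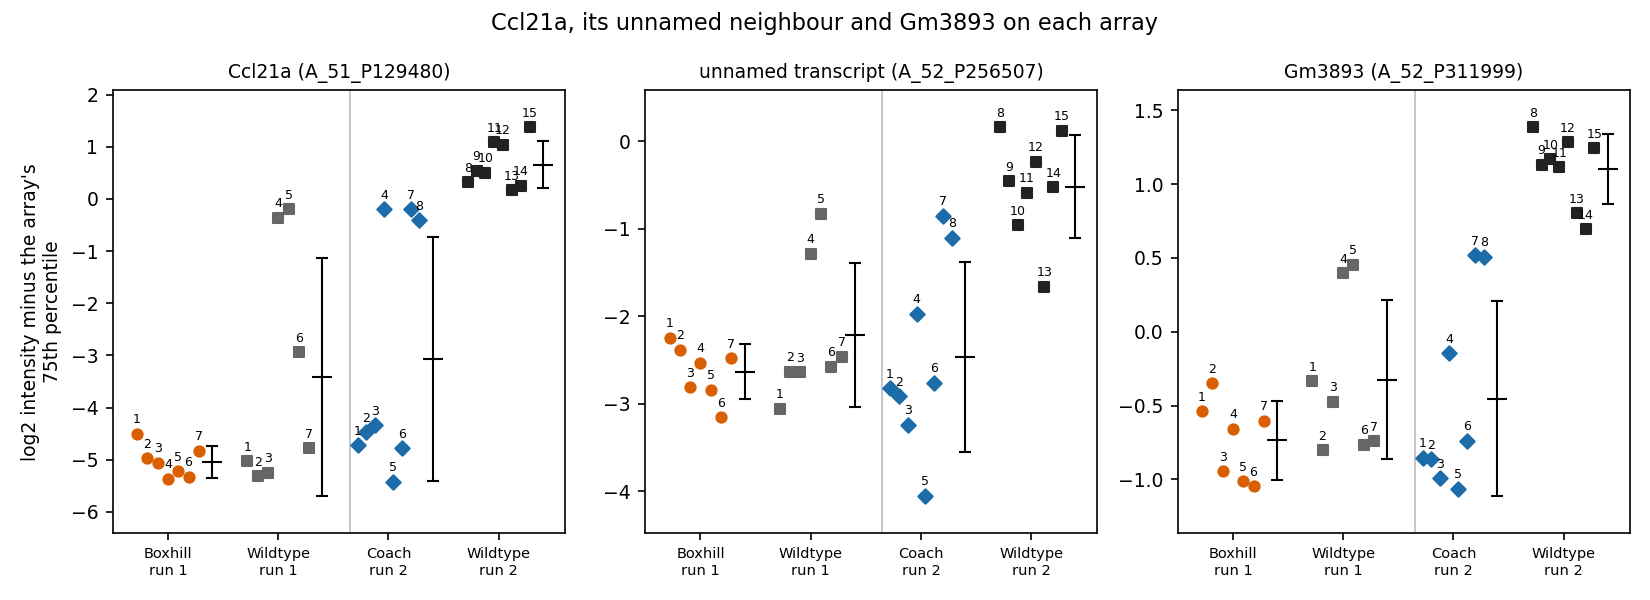
Level of Ccl21a, the unnamed transcript and Gm3893 on each array, as log2 intensity minus the array's 75th percentile (y axis) by genotype and run (x axis). Each point is 1 mouse with its replicate number in the scanner files, and the bars to the right of each group are the mean and SD of 7 or 8 mice. Wildtype replicates 4 and 5 stand above the rest of run 1 in all 3 panels, and Coach replicates 4, 7 and 8 stand above the other Coach mice.

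The unnamed transcript, whose probe lies 18.5 kb from the Ccl21a probe, was high and low on the same arrays, over a narrower range. In run 2 the Wildtype mice had a lowest level of -1.66, a median of -0.49 and a highest of 0.16. The Coach mice had a lowest level of -4.05, a median of -2.79 and a highest of -0.85. Coach replicates 7, 8 and 4, at -0.85, -1.11 and -1.97, were the highest of the Coach mice, and 7 and 8 overlapped the range of the Wildtype mice. The difference was -1.95 (SE 0.37), or 3.85-fold, the rank 4 reduction of all tested probes. In run 1 the Boxhill levels were -3.16 at the lowest, -2.53 at the median and -2.24 at the highest, and the Wildtype levels were -3.06, -2.58 and -0.83. Wildtype replicates 4 and 5, at -1.29 and -0.83, were again the 2 that stood above all others, by a gap of 0.96, while replicate 6, intermediate for Ccl21a, was at -2.58 here. The run 1 difference was -0.42 (SE 0.39), and -0.19 without Wildtype replicate 5.

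Gm3893 split the mice in the same way from a higher base. In run 2 the Wildtype mice had a lowest level of 0.69, a median of 1.15 and a highest of 1.38. The Coach mice had a lowest level of -1.06, a median of -0.80 and a highest of 0.52. All 8 Coach mice were below all 8 Wildtype mice. Coach replicates 7 and 8 were at 0.52 and 0.51, replicate 4 was at -0.14, and the other 5 Coach mice were at or below -0.74. Coach replicate 4, at the high level for Ccl21a, was thus between the 2 levels for Gm3893 and for the unnamed transcript. The difference was -1.56 (SE 0.22), or 2.94-fold, the rank 7 reduction of all tested probes. In run 1 the Boxhill levels were -1.05, -0.66 and -0.35 at the lowest, median and highest, and the Wildtype levels were -0.80, -0.47 and 0.45. Only Wildtype replicates 4 and 5 were above 0, at 0.40 and 0.45, with a gap of 0.73 to the next array, and the difference was -0.41 (SE 0.24).

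The 3 probes agreed on which mice were high. In run 1 the widest gap between neighbouring levels set off the same 2 arrays, Wildtype replicates 4 and 5, from the same 12 for all 3 probes. In run 2 the 11 arrays above the Ccl21a gap were also the 11 highest for the unnamed transcript and the 11 highest for Gm3893, although the widest gap itself fell elsewhere: it set apart Coach replicate 5 for the unnamed transcript, and put Coach replicate 4 with the low arrays for Gm3893. After the group means were removed, the levels of Ccl21a and the unnamed transcript had a Pearson r of 0.89 over the 14 arrays of run 1 and 0.83 over the 16 of run 2, and those of Ccl21a and Gm3893 had 0.78 and 0.90. These are descriptions of points that fall into separate clusters and share their arrays, with no test.

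**Figure D2:**
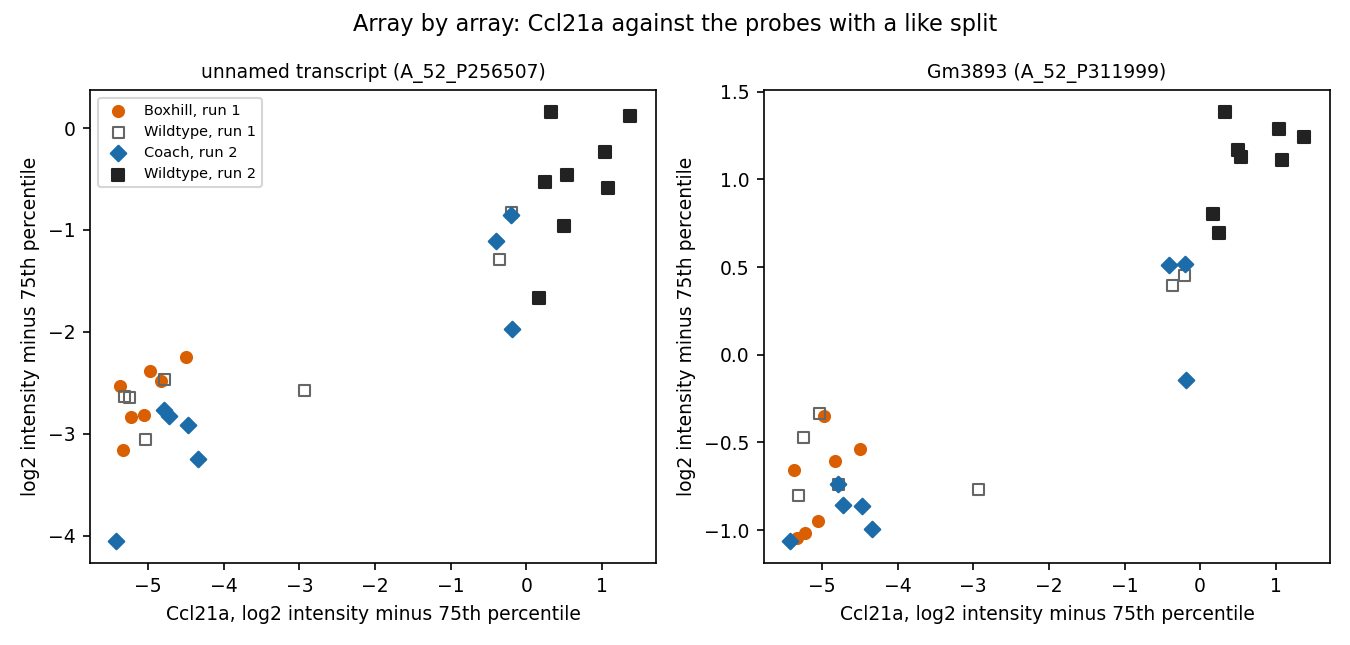
Level of the unnamed transcript (left) and of Gm3893 (right) against that of Ccl21a on the same array, both as log2 intensity minus the array's 75th percentile. Each point is 1 mouse, with genotype and run in the key. The low arrays lie at a Ccl21a level below -4.3 and the high ones above -0.5, and Wildtype replicate 6 of run 1, at -2.93, lies alone between them.

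Among all 29947 tested probes, the unnamed transcript and Gm3893 were the 2 most like Ccl21a, with a mean r over the 2 runs of 0.86 and 0.84. The next 5 were Ttc34 (0.63), Msn (0.62), Aldh4a1 (0.61), Frat1 (0.61) and Mex3d (0.60). Of these, Ttc34 and Aldh4a1 are also on chromosome 4, about 112 and 97 Mb from the Ccl21a probe, while Msn, Frat1 and Mex3d are on chromosomes X, 19 and 10. The other 7 member probes ranked 2056 or lower, from 0.30 for B4galt1 probe A_52_P122867 to -0.25 for B4galt1 probe A_52_P103391. The split between high and low arrays helped to choose the members, so nothing is read from their ranks.

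Ccl19, the other CCR7 ligand, had lower means in both knock-in lines but not the split. For probe A_51_P458262 in run 2, the Wildtype mice had a lowest level of -0.52, a median of -0.12 and a highest of 0.73. The Coach mice had -1.39, -0.61 and -0.06. The groups overlapped, and the difference was -0.52 (SE 0.18). In run 1 the Boxhill levels were -1.22, -0.88 and -0.57 and the Wildtype levels -0.72, -0.52 and 0.21, a difference of -0.44 (SE 0.19) with 5 of 7 Boxhill mice below every Wildtype mouse.
The second Ccl19 probe, A_51_P458258, gave -0.49 (SE 0.22) in Boxhill and -0.40 (SE 0.21) in Coach mice, the latter -0.24 without Coach replicate 1. Both Ccl19 probes put the same mice at the ends: Wildtype replicate 1 was highest in run 1, at 0.33 and 0.21, Wildtype replicate 14 was highest in run 2, at 0.68 and 0.73, and Coach replicate 1 was lowest, at -1.67 and -1.39. None of these stood out for Ccl21a. Coach replicates 7 and 8, high for Ccl21a, were the highest Coach mice of both probes, at 0.09 and 0.11 for A_51_P458258 and -0.06 and -0.15 for A_51_P458262. Coach replicate 4, also high for Ccl21a, was at -0.65 and -0.59. The levels of the Ccl19 probes followed each other closely after the group means were removed, with r of 0.93 in run 1 and 0.96 in run 2. Between A_51_P458262 and Ccl21a r was 0.02 and 0.39.

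Il11ra1, the receptor chain for interleukin 11, showed almost equal means. For probe A_51_P353946, the brighter one, Boxhill levels were 3.97, 4.04 and 4.14 at the lowest, median and highest against 3.89, 4.05 and 4.26 in the Wildtype mice of run 1. In run 2 Coach levels were 2.88, 3.36 and 4.14 against 2.54, 3.41 and 3.84. The differences were -0.03 (SE 0.16) and 0.16 (SE 0.15), and -0.04 (SE 0.16) and 0.08 (SE 0.15) for probe A_51_P353947. Wildtype replicates 4 and 5 were the 2 highest of run 1 for A_51_P353946 as well, at 4.20 and 4.26, only 0.06 above the next array, but they ranked 11 and 13 of 14, counted from the lowest, for A_51_P353947. In run 2 the 2 Il11ra1 probes moved together (r = 0.97) and apart from Ccl21a (r = -0.20 and -0.23), and Coach replicates 4 and 5, one high and one low for Ccl21a, were the highest Coach mice of both.

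The 3 B4galt1 probes gave different answers. For A_52_P122867, Coach levels were 0.16, 0.40 and 1.09 at the lowest, median and highest against -0.19, 0.03 and 0.51 in the Wildtype mice of run 2, a difference of 0.43 (SE 0.11) with all 8 Coach mice above the Wildtype mean. The same probe gave -0.12 (SE 0.12) in Boxhill mice, and -0.07 without Wildtype replicate 5. The neighbouring probes A_51_P155257 and A_52_P103391, about 49 kb away, gave -0.15 (SE 0.15) and -0.12 (SE 0.17) in Coach mice, and -0.24 (SE 0.16) and -0.19 (SE 0.18) in Boxhill mice.
The 2 negative values in run 2 rested on Wildtype replicate 14, which was at 0.25 and 0.67 for these probes while the other 7 Wildtype mice were at or below -1.07 and -0.30. Without that mouse they were 0.04 and 0.07. For A_51_P155257 all 7 Boxhill mice were below the Wildtype mean of run 1, and 5 of 7 were below every Wildtype mouse. The SD of this probe was 0.09 in Boxhill and 0.12 in Wildtype mice of run 1, but 0.56 in Wildtype mice of run 2. That wider spread also enters the SE of the Boxhill difference.

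**Figure D3:**
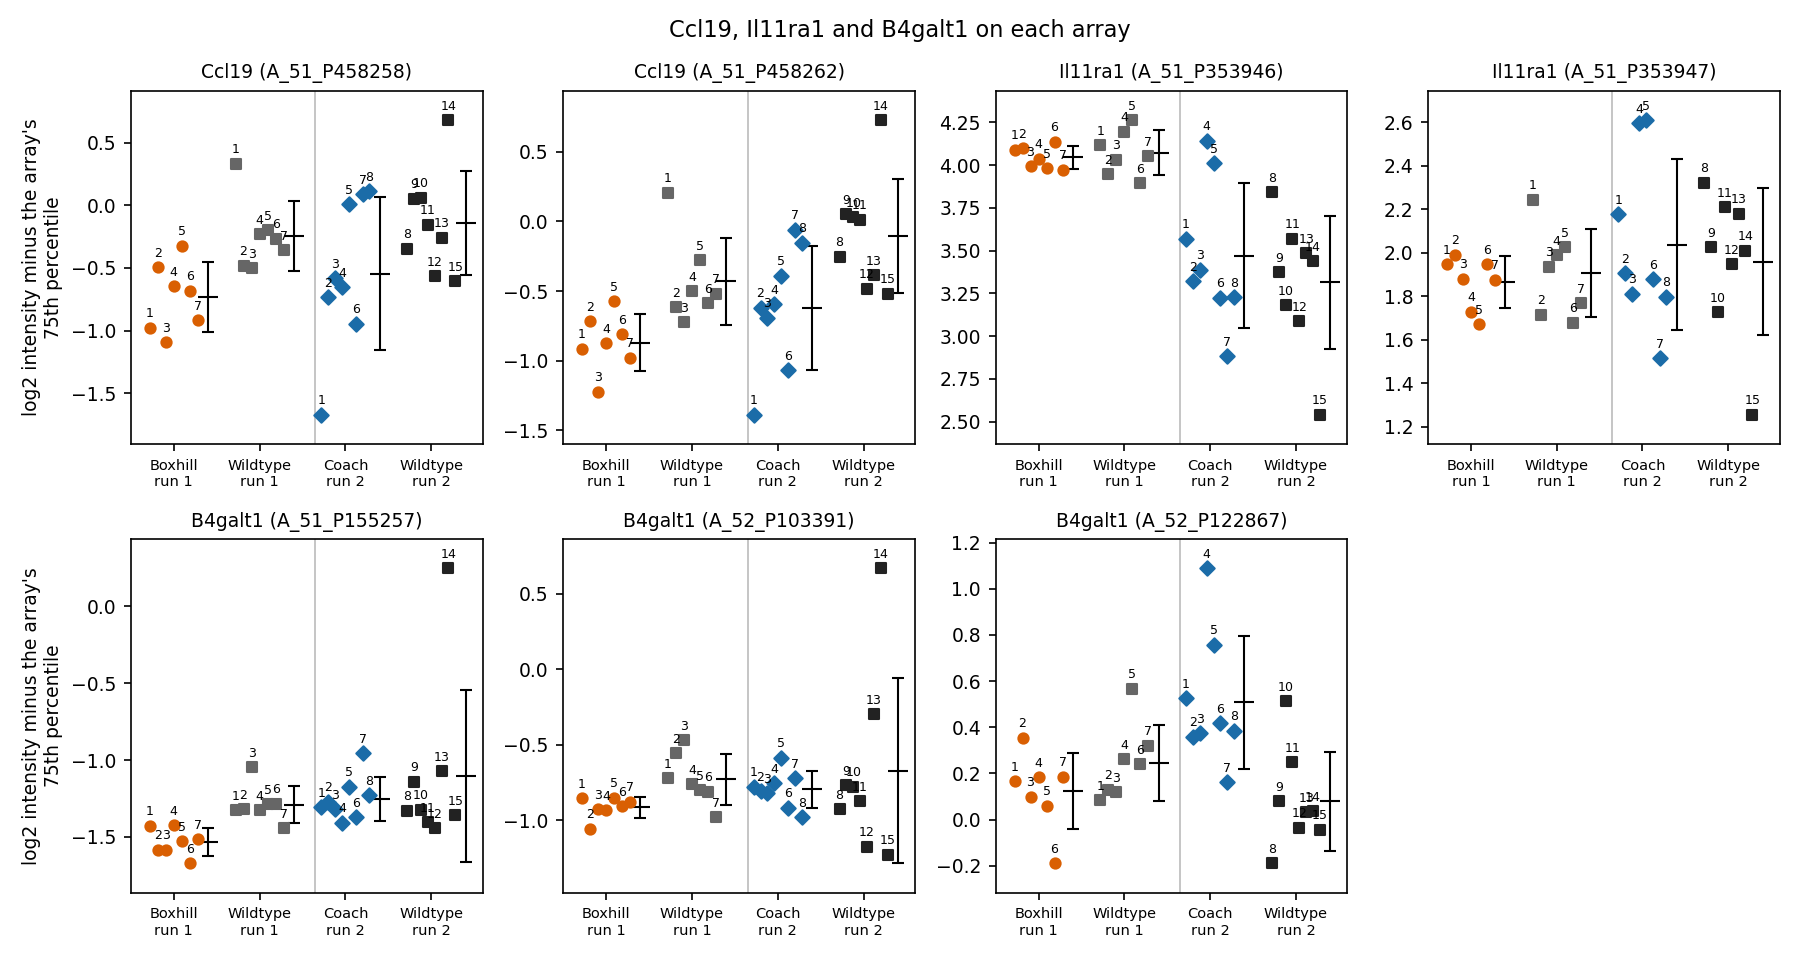
Level of the 7 probes of Ccl19, Il11ra1 and B4galt1 on each array, as log2 intensity minus the array's 75th percentile (y axis, a separate scale in each panel) by genotype and run (x axis). Each point is 1 mouse with its replicate number, and the bars are the mean and SD of 7 or 8 mice. The low and high levels of Ccl21a do not recur here, and Wildtype replicate 14 stands alone for 2 B4galt1 probes.

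Slides held mice of both kinds, so the differences were also taken within slides, 4 in run 1 and, as counted here, 4 in run 2. Only 3 slide barcodes are recorded in run 2: slides 5 and 6 carry the same barcode at different scan times with repeated positions, and were taken as separate slides. For Ccl21a, Coach minus Wildtype was -5.71, -1.11, -5.03 and -3.06 within slides 5 to 8, and -3.41 with slides 5 and 6 taken as 1, an alternative added after seeing the data. All of these values were below 0. Slide 6 held the high Coach replicates 7 and 8, and slide 8 held one high and one low Coach mouse, while the Wildtype mice of every slide were high. Boxhill minus Wildtype was 0.10, -2.49, -3.49 and 0.04 within slides 1 to 4: slide 2 held Wildtype replicate 4, and slide 3 held replicates 5 and 6. For Gm3893 the Coach differences within slides ran from -2.12 to -0.45 and those of the unnamed transcript from -2.72 to -0.78, and were below 0 on every slide as counted here, with -1.20 and -1.62 for slides 5 and 6 taken as 1.

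With limma and Benjamini-Hochberg adjustment over all tested probes at 0.05, 0 of the 10 member probes were called in Boxhill mice, where 0 of 29947 probes (0%) were called, and 2 of the 10 had an unadjusted p under 0.05, against 6.17% of all probes. In Coach mice 1 of the 10, Gm3893, was called, where 4 of 29947 probes (0.0134%) were, and 5 of the 10 had an unadjusted p under 0.05, against 1.73% of all. All member probes passed the filter on dim probes. Every Coach mouse was below every Wildtype mouse for 2 member probes, Ccl21a and Gm3893, and for 2 of all 29947 probes (0.00668%). In Boxhill mice this held for 0 member probes and 29 of all (0.0968%). Since these contrasts were used to choose the members, nothing is read from these counts. The call of Gm3893 was lost when the fit held only the arrays of run 2, by the methods' t-test, and when the 2 dimmest arrays of that run were left out, where its difference was -1.45.

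The median difference over the members was -0.33 in Boxhill mice, with 10 of 10 below 0. Over all probes it was -0.02, with 13633 of 29947 above 0. In Coach mice the median over the members was -0.28, with 7 of 10 below 0. Over all probes it was 0.01, with 15479 of 29947 above 0. These contrasts chose the members, and several probes read the same gene, so nothing is read from these counts. The 2 knock-in effects were also compared with each other in 1 fit of both runs. For Gm3893 the Boxhill effect minus the Coach effect was 1.14 (SE 0.33), for the unnamed transcript 1.52 (SE 0.53), for Ccl21a 2.10 (SE 1.15) and for B4galt1 probe A_52_P122867 -0.55 (SE 0.17). By limma with the same adjustment 0 of 29947 probes (0%) were called in that comparison. Genotype and run cannot be told apart in it, and the Wildtype mice of the 2 runs themselves differed, with 4 of 7 low for Ccl21a in run 1 and 0 of 8 in run 2.

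Around the members, the array held 228 other probes placed on chromosome 4 within 5 Mb of the Ccl21a probe, of which 175 were tested. By limma none was called in either comparison (0 of 175 in both), and 12 in Boxhill and 2 in Coach mice had an unadjusted p under 0.05. Their median difference was -0.02 and -0.01. The largest of these in Boxhill mice were those of the 2 Igfbpl1 probes, A_52_P633353 (-0.95, SE 0.51) and A_51_P270997 (-0.77, SE 0.49), and of Dcaf12 (-0.84, SE 0.33). In Coach mice they were those of Tmod1 (-0.54, SE 0.24), Trim14 (-0.51, SE 0.22) and Tmem215 (0.49, SE 0.33). None of the 175 reached the Coach difference of Ccl21a, of the unnamed transcript or of Gm3893. Since the members were chosen by these differences, nothing is read from this.

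**Figure D4:**
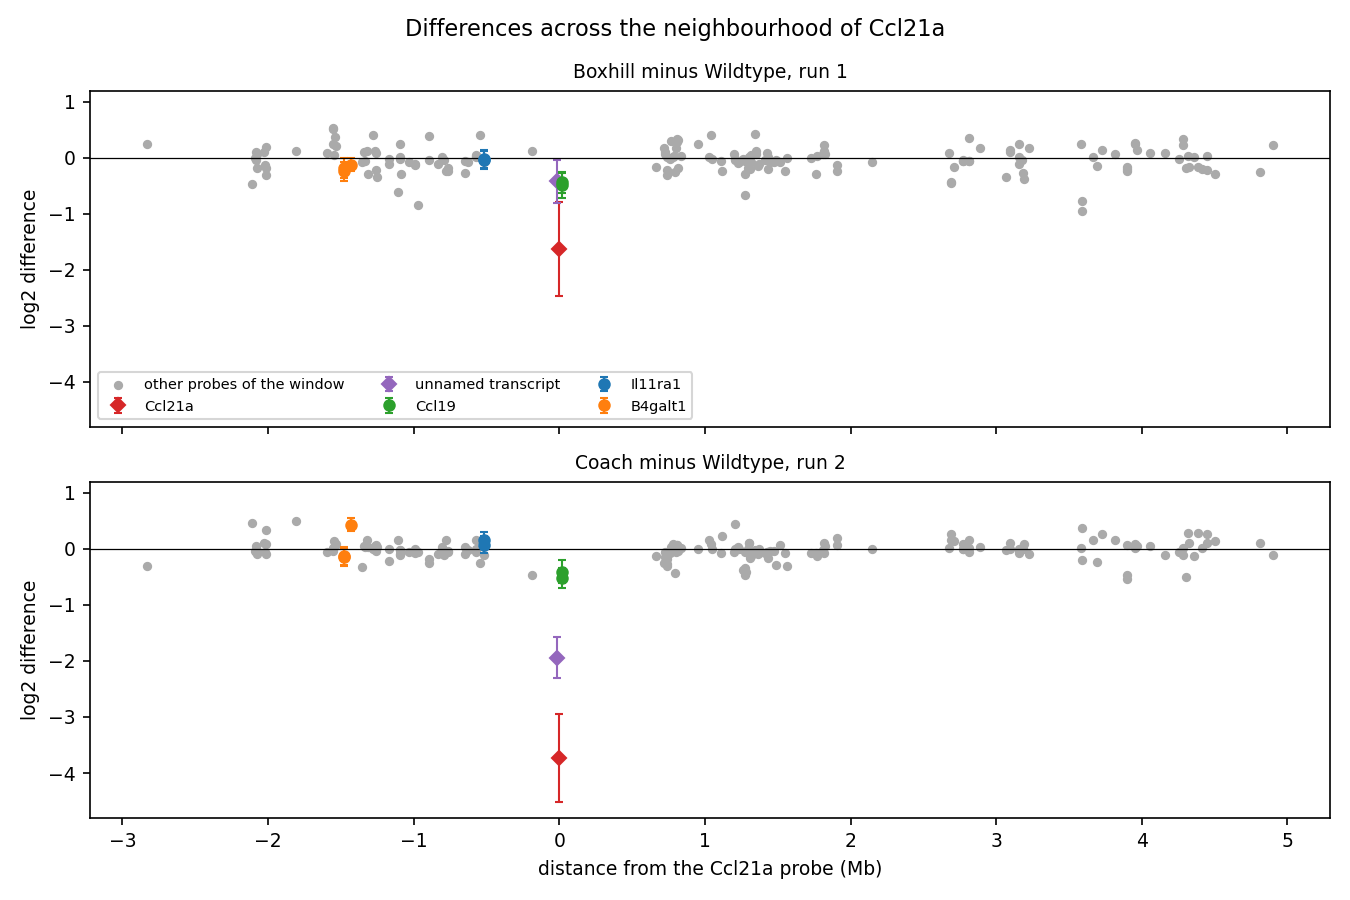
Log2 difference between knock-in and Wildtype mice (y axis) against the distance from the Ccl21a probe in Mb (x axis), for Boxhill in run 1 (top) and Coach in run 2 (bottom). Coloured points are member probes with their standard errors and grey points are the 175 other tested probes of the window, while Gm3893, which the files do not place on the chromosome, is not drawn. Ccl21a at -1.63 and -3.73 is the lowest point of each panel, and grey points lie between -0.95 and 0.52.

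The partners of these genes were looked for in 4 lists. Of 17 tested probes for the CCR7 axis and lymphoid chemokines, limma called 0 in both comparisons, 1 in Boxhill and 0 in Coach mice had an unadjusted p under 0.05, and the medians were -0.03 and 0.03. Ccr7, the receptor of both chemokines, was well above background on 1 of 30 arrays and was not tested. Ackr4, a scavenging receptor for them, was so on 7 of 30 arrays and differed by 0.38 (SE 0.33) in Boxhill and 0.26 (SE 0.31) in Coach mice. The extremes were Ackr2, another scavenging receptor, at -0.30 (SE 0.28) and -0.35 (SE 0.27), and in Coach mice Cxcl13, a chemokine for B cells, at 0.33 (SE 0.43).

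Of 17 tested probes for the other CC chemokines, limma called 0 in both comparisons, 4 in Boxhill and 1 in Coach mice had an unadjusted p under 0.05, and the medians were 0.18 and -0.09. The extremes in Boxhill mice were Ccl7, a chemokine for monocytes, at 0.93 (SE 0.36) on probe A_51_P436652, and Ccl3, which attracts macrophages, at -0.59 (SE 0.37). In Coach mice Ccl7 was also the highest, at 0.57 (SE 0.26) on probe A_52_P208763, and Ccl24, an eosinophil chemokine, the lowest, at -0.43 (SE 0.25) on probe A_52_P18116.
Of 27 tested probes for the interleukin 11 receptor and gp130 signalling, 0 were called by limma, with 2 and 0 at an unadjusted p under 0.05 and medians of -0.08 and -0.02. Il11 itself differed by 0.18 (SE 0.13) and 0.02 (SE 0.12), and Il6st, which encodes gp130, by -0.16 (SE 0.10) and 0.05 (SE 0.09). The extremes in Coach mice were Il6ra, the interleukin 6 receptor, at -0.49 (SE 0.30) on probe A_51_P415855 and Osmr, the oncostatin M receptor, at 0.34 (SE 0.31) on probe A_52_P495729. Of 30 tested probes for galactosyltransferases and the synthesis of N-glycans, 0 were called by limma, with 1 and 0 at an unadjusted p under 0.05 and medians of -0.00096 and -0.011. The widest in Boxhill mice were Mgat5, which branches N-glycans, at -0.49 (SE 0.39) on probe A_52_P24696 and Mgat1, which starts their branching, at 0.22 (SE 0.27) on probe A_52_P90337. In Coach mice they were St3gal4, a sialyltransferase, at 0.24 (SE 0.19) on probe A_51_P135137 and Lalba, the partner of B4galt1 in lactose synthesis, at -0.16 (SE 0.34).

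Markers of the lymphatic and lymphoid cells in which CCL21 is made or acts passed no test in either comparison. Of 10 tested probes for lymphatic endothelium and lymph node stroma, 0 were called by limma in either comparison and 0 had an unadjusted p under 0.05. Their medians were -0.10 and 0.08, and their mean level per array ran from -4.32 to -3.84 in Boxhill, -4.14 to -3.83 and -5.29 to -3.79 in the Wildtype mice of runs 1 and 2, and -4.51 to -3.74 in Coach mice. Among them the Lyve1 probes were well above background on 9 and 19 of 30 arrays, and the Prox1 probes on 30, 29 and 30. The Pdpn probes were so on 30 and 30 arrays, Madcam1 on 25, Flt4 on 15 and the tested Cr2 probe on 27. Of 8 tested probes for lymphocytes, 0 were called and 0 had an unadjusted p under 0.05, with medians of 0.02 and -0.02. Choroid plexus markers, 10 tested probes with 0 called, had a median of -0.32 with 1 above 0 in Boxhill mice. In Coach mice the median was 0.65 with 9 above 0, and 3 had an unadjusted p under 0.05 by limma, against 1.73% of all probes. The part of choroid plexus markers in the members' differences was not tested. Of the tested probes for hypothalamic neurons (10), pituitary (8), meninges (10), blood vessel endothelium (9), microglia and macrophages (11) and blood (9), limma called 0 in both comparisons, and only 1 for meninges and 1 for microglia, both in Coach mice, had an unadjusted p under 0.05. Over all 29947 probes, 13633 were above 0 in Boxhill and 15479 in Coach mice. Hypothalamic neuron markers had medians of 0.22 with 9 of 10 above 0 in Boxhill and 0.43 with 8 of 10 above 0 in Coach mice. Meningeal markers had medians of -0.25 with 1 of 10 above 0 and 0.10 with 8 of 10 above 0. Microglial markers had medians of 0.04 with 7 of 11 above 0 and -0.14 with 1 of 11 above 0. Markers of blood vessel endothelium had medians of -0.16 with 1 of 9 above 0 and -0.04 with 2 of 9 above 0. For blood the medians were -0.02 with 3 of 9 above 0 and -0.25 with 2 of 9 above 0. For pituitary they were 0.02 and -0.33, each with 4 of 8 above 0. The part of these markers in the members' differences was not tested. In bulk tissue, fewer cells of a type and less RNA per cell cannot be told apart.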

How the data were processed

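RNA from 30 hypothalami was hybridised by the authors to Agilent 1-colour mouse arrays and read with Feature Extraction 10.7.1.1, and the deposited scanner files hold 1 processed intensity per spot. The deposited value table holds log2 values that the authors shifted to the 75th percentile, and it was used only as an alternative, since its array numbers in run 1 differ from those of the scanner files. Its runs were also on different scales. For Ccl21a its Boxhill values were -0.38 to 0.50, against levels of -5.37 to -4.50 here. Coach replicate 1 was at -4.72 in both. The log2 of the processed signal minus each array's 75th percentile was taken here over 43379 non-control spots after 36 to 117 outlier spots per array were removed, and spots of a probe were averaged. The 29947 probes well above background on at least 0.5 of the arrays of 1 genotype entered a limma fit (limma 3.58.1, R 4.3.3) of 4 groups, genotype by run. On simulated data of these 29947 probes with 200 changed by 2 log2 units it recovered 195 in the Boxhill and 197 in the Coach comparison. The simulated noise was independent and normal with equal spread in all groups, so it does not cover probes that fall into separate levels. The number of arrays limits the precision. The members and lists were chosen with earlier results of these data known. Named genes were all member probes, the CCR7 and interleukin 11 partners, the extremes of each list (one of them is not reported here), the 3 largest differences per comparison among window probes with a gene name that were well above background on at least 0.5 of the arrays of both groups, and the 5 other probes most like Ccl21a. Alternatives covered quantile, percentile and normexp (on median spot signals, 50 added to each intensity) settings, filters, outlier spots and the authors' table. They also covered slide and replicate blocks, single runs, the methods' t-test and each array left out. No genome was used here.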

Additional observations from a re-analysis of the deposited data

Results flagged for a closer look

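Of 40 groups of member levels (10 probes in 4 groups), 5 held an array far from the others of its group by Dixon's criterion, which chance gives in about 1 in 20 groups. For B4galt1, Wildtype replicate 14 of run 2 was high at 0.25 with probe A_51_P155257, Wildtype replicate 3 of run 1 was high at -1.05 with the same probe, and Boxhill replicate 2 was low at -1.06 with probe A_52_P103391. For Ccl19, Wildtype replicate 1 of run 1 was high at 0.33 with probe A_51_P458258, and Wildtype replicate 14 of run 2 was high at 0.73 with probe A_51_P458262. No group of Ccl21a, Gm3893 or the unnamed transcript met the criterion. It looks for 1 array far from the rest, so it can miss arrays that are high together. For Ccl21a, Wildtype replicates 4 and 5 of run 1 were high together, as were Coach replicates 4, 7 and 8. Nothing is therefore read from their not meeting it.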

How the results depend on the processing

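With the 3 linked probes, the difference kept its sign under every alternative run. For Ccl21a in Boxhill mice it was -1.03 with normexp background correction, which used median spot signals with 50 added. With 1 array left out it was -1.95 to -1.09. For Ccl21a in Coach mice the range was -3.73 to -2.58 over the other alternatives and -4.14 to -3.39 with 1 array left out. The Coach calls depended on the setting. Over all probes there were 7 with normexp, 7 with outlier spots kept, 9 with the slide as a random block, 7 when each tested probe had to be well above background on all 30 arrays, 0 with only the arrays of the run, 0 by the methods' t-test and 0 without the 2 dimmest arrays of run 2 (chosen after seeing the data), and 2 to 8 with 1 array left out. Among the members there were 2 with quantile normalization, 3 with normexp, 2 with outlier spots kept, 3 and 2 with the slide as a random and a fixed block, 2 with that stricter filter, 0 with only the arrays of the run, 0 by the methods' t-test and 0 without the 2 dimmest arrays, and 1 to 3 with 1 array left out. Since these contrasts chose the members, their calls are no measure of stability. In Boxhill mice 0 to 3 probes and 0 members were called with 1 array left out. The stricter filter removed Ccl21a. Replicate numbers did not pair the mice of run 1 (correlations of same-numbered deviations from -0.29 to 0.40), and with the replicate block the Ccl21a difference in Boxhill mice was again -1.63 and 0 probes were called. The lists and the window had 0 calls under every alternative. The low Ccl21a levels are dim, and those of Boxhill replicate 4 and Coach replicate 5 were not well above background, which limits their order.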
